A study of Mus musculus with 24 samples.

Results

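The genes described here serve the use of fat and ketone bodies as fuel: *Slc16a1*, *Bdh1*, *Oxct1*, *Cpt1a*, *Cpt2*, *Acadm*, *Pdk4* and *Angptl4*. All probes whose transcript identifier belongs to one of these 8 genes were taken, which gave 8 of the 23787 genes named on the array and 11 of its 56605 unique probes. *Bdh1*, *Oxct1* and *Cpt2* had 2 probes each and the other genes had 1. A gene is represented by its probe with the highest mean signal, and the other probe is given beside it.

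Hippocampal RNA of 48 male Swiss-Webster mice, 12 weeks old, was measured on 24 two-color microarrays with 8 arrays for each of 3 time points. Treated animals drank corticosterone, the main glucocorticoid hormone of rodents, at 100 µg/ml in water with 0.45% hydroxypropyl-β-cyclodextrin, which keeps the steroid in solution. Vehicle animals drank water with the same cyclodextrin, so both groups carried it. The bottles were given for the 12 h dark phase, and animals were killed in the 1st, 5th or 9th hour of the following light phase, called hour 1, hour 5 and hour 9. The 6 groups of treatment and hour held 8 animals each, and all mice came from 1 breeding colony and lived in individual cages before treatment. Vehicle groups were made up of brothers of treated animals, but whether the animals sharing an array were brothers is not given in the sources used here. Each array compared 1 vehicle animal labelled with Cy3 with 1 corticosterone animal labelled with Cy5, and the dyes were never exchanged. Dye and treatment can therefore not be told apart in a comparison at a single hour, whereas a constant dye difference cancels when the corticosterone effect is compared between hours. The question was which of these genes responded to a night of raised corticosterone and how long the response lasted into the resting phase.

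Tissue cells take up ketone bodies and lactate through monocarboxylate transporters and turn ketone bodies into acetyl-CoA in the mitochondria. Long-chain fatty acids enter mitochondria through the carnitine shuttle and are shortened by beta-oxidation, and pyruvate dehydrogenase kinases hold back the entry of carbohydrate carbon when fat is burned. In brain, glucose is the main fuel, ketone bodies cross the blood-brain barrier and serve neurons in fasting, and fatty acid oxidation is found mainly in astrocytes. Several of these genes are targets of the fatty acid sensor PPARα or of the glucocorticoid receptor in liver and muscle.

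Per array, the share of spots brighter than background was 60.8 to 67.2% for Cy3 and 64.0 to 73.5% for Cy5, with 0 saturated spots. Precision is limited by how many arrays were run. All 8 members were well above background in 48 of 48 channels with their representative probe. The 9 neuron markers, among them *Prox1* of dentate granule cells in hippocampus, were also well above background in 48 of 48 channels. Of the 14 genes listed as glucocorticoid receptor targets, 12 were higher with corticosterone at hour 1, 7 at hour 5 and 2 at hour 9, where 7 were lower, with a median log2 fold change of 0.66, 0.20 and -0.19. These results come from whole tissue, in which a loss of cells of one type and less RNA per cell cannot be told apart.

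*Pdk4*, *Angptl4* and *Cpt1a* were higher and *Slc16a1* was lower with corticosterone at hour 1, while no difference passed the test for *Bdh1*, *Oxct1*, *Cpt2* and *Acadm* with their brightest probe. At hour 5 and at hour 9, *Angptl4* and *Cpt1a* were still higher and *Slc16a1* was still lower, and *Pdk4* was no longer different. This made 4 of 8 members at hour 1, against 17.5% of all probes that passed the same threshold (an adjusted p under 0.05 over all probes), 3 of 8 at hour 5 against 18.1%, and 3 of 8 at hour 9 against 14%. Among the brightest probes of named genes with a mean signal of 50 or more, which resemble the members more closely, the shares were 24.4, 23.7 and 16.5%. The 3 members that were higher at hour 1 and the 2 at each later hour stand beside 8.85, 8.62 and 7.01% of all probes called higher, and the 1 member that was lower at each hour stands beside 8.67, 9.47 and 6.97% called lower. The median log2 fold change of the 8 members was 0.08, 0.0067 and 0.0006 at the 3 hours, and that of all probes was -0.0009, 0.001 and 0.0006.

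**Figure D1:**
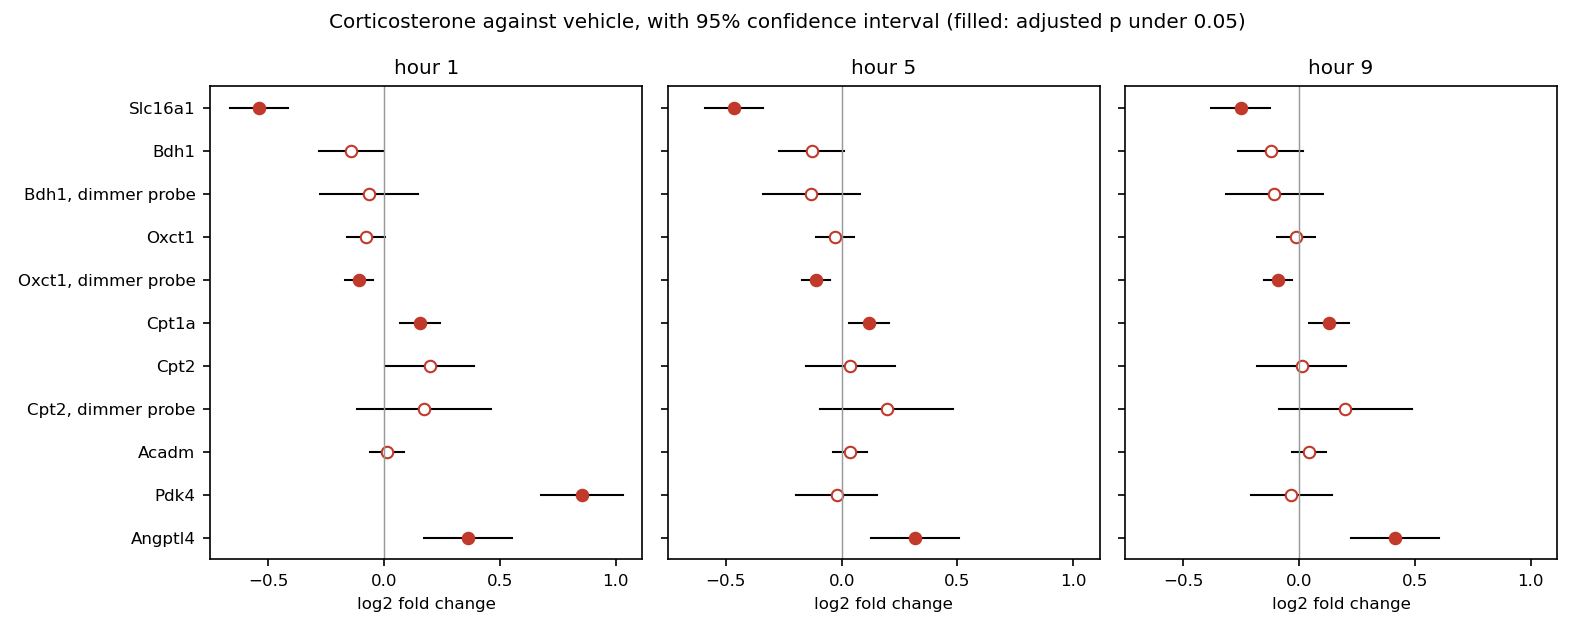
Log2 fold change of corticosterone against vehicle (horizontal axis) for the 11 probes at hours 1, 5 and 9; points are the fitted values, bars are 95% confidence intervals, and filled points have an adjusted p under 0.05. *Pdk4* stands at 0.85 at hour 1 and near 0 later, *Slc16a1* moves from -0.54 to -0.25, and *Angptl4* stays between 0.32 and 0.42.

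The stretches of 250 bases before the transcript start are shown for *Pdk4*, *Slc16a1* and *Cpt1a*, 3 of the 4 members called with their brightest probe. They come from the RefSeq table of build GRCm38.p6, in which 7 of the 8 members were found (not *Angptl4*), and read 5′ to 3′ along the gene's strand. Capitals mark the letters AGGTCA, bound by PPAR and other nuclear receptors, on either strand. The windows lie at chr6:5496279-5496528 on the minus strand for *Pdk4*, chr3:104638414-104638663 on the plus strand for *Slc16a1* and chr19:3323051-3323300 on the plus strand for *Cpt1a*.
Pdk4: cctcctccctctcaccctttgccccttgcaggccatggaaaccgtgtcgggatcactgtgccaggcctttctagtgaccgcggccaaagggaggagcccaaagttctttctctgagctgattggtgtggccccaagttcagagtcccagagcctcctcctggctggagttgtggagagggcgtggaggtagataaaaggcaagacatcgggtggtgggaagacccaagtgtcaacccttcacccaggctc
Slc16a1: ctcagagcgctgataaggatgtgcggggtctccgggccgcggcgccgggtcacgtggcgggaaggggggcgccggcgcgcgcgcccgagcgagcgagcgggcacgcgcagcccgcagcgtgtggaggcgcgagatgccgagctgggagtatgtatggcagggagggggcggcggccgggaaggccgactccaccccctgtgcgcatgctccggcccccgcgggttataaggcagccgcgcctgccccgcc
Cpt1a: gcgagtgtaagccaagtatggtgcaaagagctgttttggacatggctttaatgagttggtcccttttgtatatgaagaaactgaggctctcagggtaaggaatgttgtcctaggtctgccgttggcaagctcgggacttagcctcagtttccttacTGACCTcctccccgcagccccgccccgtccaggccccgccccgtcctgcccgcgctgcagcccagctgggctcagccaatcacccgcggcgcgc

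Windows of 300 bases, from 250 before to 50 after the start, were searched on both strands for AGGTCA and for TGTTCT, the core letters bound by the glucocorticoid receptor. The first was found in 1 copy in *Cpt1a* and in 1 copy in *Acadm*, on the opposite strand in both, and in 16.3% of the 32851 promoters of the table. TGTTCT was found in 0 of the 8 windows of the 7 members (*Bdh1* had 2) and in 19% of all promoters. The full response elements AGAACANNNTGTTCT and AGGTCANAGGTCA, which contain these letters, were found in 0 of the members' windows and in 0.00913 and 0.0396% of all promoters. A window without these letters says nothing about sites elsewhere.

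*Slc16a1* encodes MCT1, the transporter that carries lactate, pyruvate and ketone bodies across the membranes of brain endothelium, astrocytes and oligodendrocytes. It was lower with corticosterone on 8 of 8 arrays at each hour, by 1.46-fold at hour 1, 1.38-fold at hour 5 and 1.19-fold at hour 9. At hour 1, vehicle animals ranged from 1916 to 2642 in normalized signal (median 2291) and corticosterone animals from 1315 to 1816 (median 1568), and the groups did not overlap. At hour 5 vehicle animals lay between 1991 and 2349 (median 2284) and corticosterone animals between 1266 and 2001 (median 1617). At hour 9 the ranges were 1968 to 2690 (median 2287) and 1775 to 2084 (median 1897). At the later hours the ranges overlapped, at hour 5 through 1 treated animal at 2001, which was almost equal to its array partner at 2011. The log2 fold changes were -0.54 (SE 0.0625, adjusted p = 3.4e-09), -0.46 (adjusted p = 1.4e-07) and -0.25 (adjusted p = 0.0027).

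The effect on *Slc16a1* at hour 9 was smaller than at hour 1 by 0.29 on the log2 scale (95% interval 0.11 to 0.47), but this change did not pass the threshold over all probes (adjusted p = 0.11). Within slides, the mean log2 ratio at hour 1 was -0.53, -0.56 and -0.53 on slides 1 to 3, and at hour 9 it was -0.26, -0.38 and -0.11. Slide 1 carried 4 of the 8 arrays of hour 9, and the difference at that hour was -0.24 (adjusted p = 0.14) when it was left out. With the processed signals of the scanner software, the change from hour 1 to hour 9 reached 0.33 (adjusted p = 0.044).

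Endothelial and mural cell markers moved in part with *Slc16a1*. Of the 14 markers, 6 were lower and 1 was higher at hour 1, 4 were lower and 1 was higher at hour 5, and 2 were lower and 2 were higher at hour 9. The median log2 fold change of this list was -0.19, -0.11 and 0.06. Their summed signal ranged from 22500 to 25570 in vehicle and from 19260 to 23580 in corticosterone animals at hour 1, from 24260 to 27170 and from 21540 to 23840 at hour 5, and from 21890 to 27070 and from 21760 to 25730 at hour 9. The claudin *Cldn5* of tight junctions, for example, was at -0.36 at hour 1 and at 0.24 at hour 9, and the VEGF receptor *Flt1* was at -0.61, -0.47 and -0.37. *Pecam1* went the other way, at 0.29, 0.23 and 0.15 (adjusted p = 0.0023, 0.015 and 0.15), and was the 1 marker called higher at hours 1 and 5. Astrocyte markers were mixed, with 2 higher and 2 lower of 9 at hour 1. The part of these cell types in the *Slc16a1* result was not tested.

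**Figure D2:**
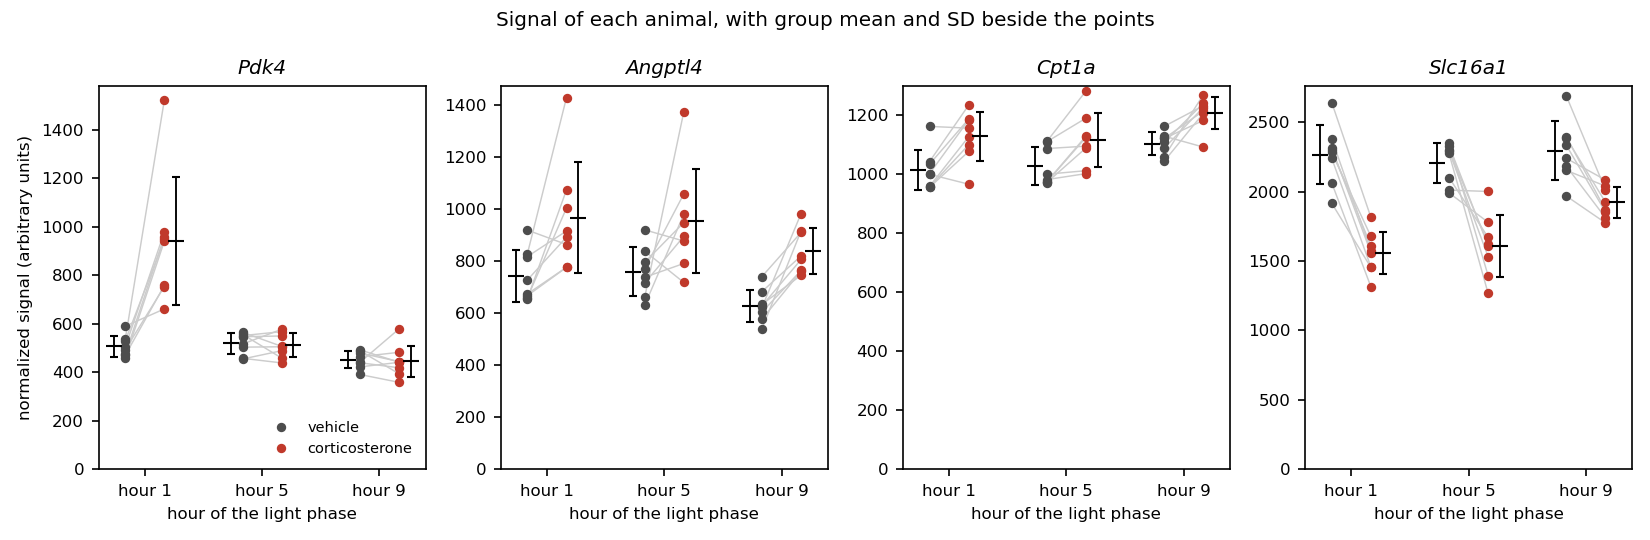
Normalized signal (vertical axis, from 0, arbitrary units) of each animal for the 4 members called with their brightest probe, with grey lines joining the vehicle and the corticosterone animal of an array and bars for group mean and SD (n = 8). *Pdk4* separates only at hour 1, where vehicle animals end at 590 and corticosterone animals start at 661; *Slc16a1* is lower in the treated animal of every array.

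Of the 6 other genes of monocarboxylate transport, 2 were lower and 0 higher at hour 1, 0 changed at hour 5, and 1 was higher at hour 9. The transporter *Slc16a6* fell by 0.23 at hour 1 (log2 fold change, adjusted p = 0.013), with 0 of 8 arrays higher, and the transporter chaperone *Emb* (embigin) fell by 0.17 (adjusted p = 0.034). The other chaperone, *Bsg* (basigin), rose by 0.20 at hour 9 (adjusted p = 0.032). The neuronal transporter *Slc16a7* (MCT2) had log2 fold changes of -0.04, -0.07 and -0.04, and none passed the test. The median of the list was -0.0023, -0.0028 and -0.014.

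*Bdh1*, which interconverts the ketone bodies acetoacetate and beta-hydroxybutyrate in mitochondria, had a signal of 5027 ± 725 (SD, n = 8) in vehicle and 4514 ± 176 (SD, n = 8) in corticosterone animals at hour 1. Vehicle animals ranged from 4374 to 6326 and treated animals from 4251 to 4725, so the groups overlapped. The treated animal was the higher of the pair on 1, 2 and 1 of 8 arrays at the 3 hours. The log2 fold changes were -0.14 (95% interval -0.28 to -0.0041), -0.13 (-0.27 to 0.01) and -0.12 (-0.26 to 0.02), with adjusted p of 0.12, 0.17 and 0.22. At hour 5 the log2 ratios of the arrays ran from -0.50 to 0.31, with a median of -0.19. Of the 24 fits that left out 1 array, 1 passed the threshold at hour 5. It left out the array with the ratio of 0.31 (replicate 2) and gave -0.19 (adjusted p = 0.036). Over the 24 fits the log2 fold change at hour 5 ran from -0.19 to -0.08, with adjusted p up to 0.47. The dimmer probe of *Bdh1* gave -0.07, -0.13 and -0.11, and none of these differences was significant.

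*Oxct1* encodes SCOT, the enzyme that activates acetoacetate in tissues that burn ketone bodies and the step that liver lacks. Its 2 probes gave different calls. The brighter probe had a median of 26620 in vehicle and 25280 in corticosterone animals at hour 1 and log2 fold changes of -0.08, -0.03 and -0.01, with adjusted p of 0.13, 0.65 and 0.88. The dimmer probe had a median of 21380 in vehicle animals (20670 to 22880) and 19710 in corticosterone animals (19270 to 21360) at hour 1. On the log2 scale it stood at -0.11, -0.11 and -0.09 (SE 0.0301) with adjusted p of 0.0019, 0.0017 and 0.012, lower in the treated animal on 8 of 8 arrays at hours 1 and 5 and higher on 1 of 8 at hour 9, with overlapping ranges at each hour. The intervals of the brighter probe, -0.16 to 0.0020 at hour 1, -0.11 to 0.05 at hour 5 and -0.09 to 0.07 at hour 9, include part of the range of the dimmer probe, and the difference between probes was not tested.

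Of the 10 other genes of ketone body synthesis and use, 9 had a named probe. The thiolase *Acat1* fell by 0.11 at hour 5 (adjusted p = 0.043). *Hmgcs1*, the cytosolic enzyme of cholesterol synthesis, was at -0.25, -0.23 and -0.24. In all, 2 of the 9 were higher and 2 lower at hour 1, 1 higher and 4 lower at hour 5, and 1 higher and 2 lower at hour 9, and these counts include 2 genes with a mean signal under 50, *Oxct2a* and *Oxct2b*, whose spots were brighter than background in 1 and in 0 of 48 channels. The median of the list was -0.0093, -0.11 and 0.04.

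*Cpt1a*, the gate of the carnitine shuttle that loads long-chain fatty acids for transport into mitochondria, was slightly higher with corticosterone at each hour. Its signal was 1013 ± 68.9 (SD, n = 8) in vehicle and 1128 ± 82.9 (SD, n = 8) in corticosterone animals at hour 1, 1025 ± 64.4 and 1115 ± 91.3 at hour 5, and 1103 ± 38.7 and 1207 ± 53.3 at hour 9. The groups overlapped at each hour, and the treated animal was the higher one on 6, 8 and 7 of 8 arrays. This made 11.3, 8.58 and 9.34% on average, or 0.15, 0.12 and 0.13 as log2 fold change (SE 0.0425), and the adjusted p was 0.0044, 0.029 and 0.021. The effect at hours 5 and 9 was close to the threshold. With each hour fitted alone, the log2 fold change at hour 5 was 0.12 (adjusted p = 0.080). Without slide 1, 2 or 3 it was 0.12, 0.14 and 0.096 at hour 5 (adjusted p = 0.11, 0.064 and 0.19). At hour 9 it was 0.18, 0.12 and 0.10 in the same order (adjusted p = 0.10, 0.086 and 0.11). At hour 1 it was 0.12 (adjusted p = 0.10) without slide 1. Leaving out replicate 2, 4, 6 or 7 of hour 5 gave adjusted p of 0.082, 0.079, 0.068 and 0.062 at that hour, and leaving out replicate 5, 7 or 8 of hour 9 gave 0.062, 0.084 and 0.055, with log2 fold changes between 0.11 and 0.12.

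*Cpt2*, the enzyme of the inner membrane that completes the shuttle, was at 656 ± 64.7 (SD, n = 8) in vehicle and 760 ± 145 (SD, n = 8) in corticosterone animals at hour 1. Its log2 fold change was 0.20 at hour 1 (95% interval 0.0044 to 0.39, adjusted p = 0.13), with the treated animal higher on 7 of 8 arrays, and 0.04 and 0.012 at hours 5 and 9. The difference at hour 1 passed the threshold with limma on log ratios (adjusted p = 0.027), with the processed signals (0.032), with the authors' own log2 ratios (0.018) and without replicate 7 of hour 5 (0.035). The dimmer *Cpt2* probe was well above background in 0 of 8 vehicle channels at each hour and in 2, 1 and 1 of 8 corticosterone channels, so its differences are not described here.

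For *Acadm*, the dehydrogenase for medium-chain fatty acids, no difference was detected. Vehicle animals ranged from 3753 to 4021 (median 3885) and corticosterone animals from 3542 to 4269 (median 3934) at hour 1, and the ranges overlapped at each hour. The log2 fold changes were 0.010 (95% interval -0.06 to 0.08), 0.04 (-0.04 to 0.11) and 0.04 (-0.03 to 0.12), with adjusted p of 0.87, 0.49 and 0.40. These intervals do not reach a difference of 0.15, the size seen for *Cpt1a* at hour 1.

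**Figure D3:**
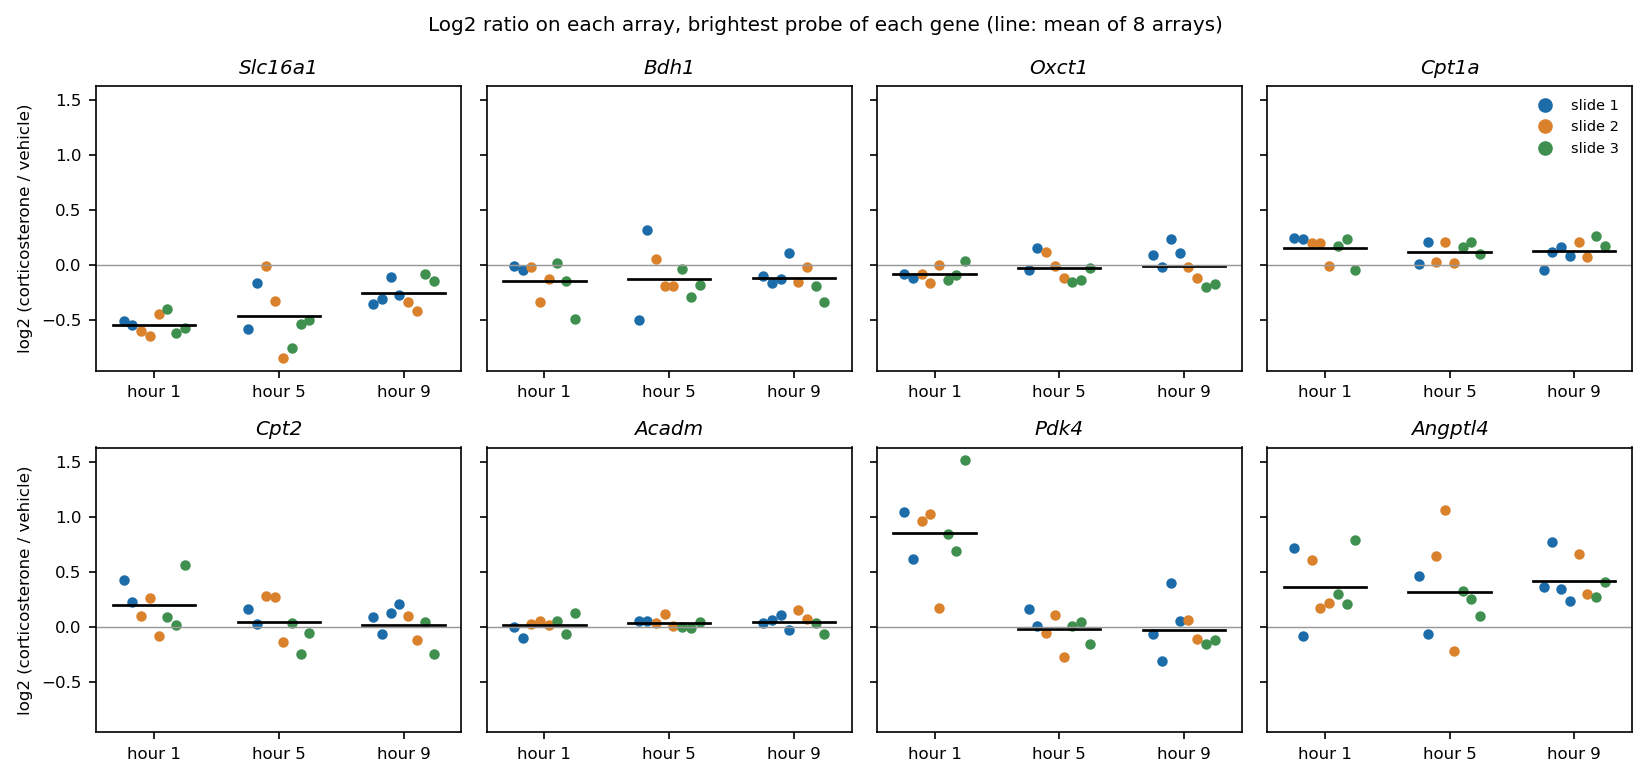
Log2 ratio of corticosterone over vehicle (vertical axis) on each of the 8 arrays per hour for the brightest probe of each gene, colored by slide, with the mean as a line. All 24 ratios of *Slc16a1* lie below 0, those of *Pdk4* at hour 1 run from 0.16 to 1.51, and those of *Angptl4* at hour 5 spread from -0.22 to 1.06.

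Other genes of fatty acid oxidation changed in both directions, and the counts below stand beside the 24.4, 23.7 and 16.5% of bright named genes called at hours 1, 5 and 9. Of 12 other genes of the carnitine shuttle and acyl-CoA activation, 2 were higher and 1 lower at hour 1, 2 and 1 at hour 5, and 1 and 1 at hour 9. The fatty acid transporter *Slc27a1* had the largest change of those named here, with log2 fold changes of 0.37, 0.40 and 0.35 (adjusted p = 0.0012, 0.00053 and 0.0036). The brain form of the shuttle enzyme, *Cpt1c*, was at 0.15 and 0.16 at hours 1 and 5 (adjusted p = 0.014 and 0.0069). Of the acyl-CoA synthetases, *Acsl4* fell by 0.16 at hour 5, and *Acsl3* fell by 0.22 at hour 9 (adjusted p = 0.017) after 0.16 at hour 1, a change of the effect of -0.38 (adjusted p = 0.020). The median of the list was 0.05, 0.05 and -0.0043.

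Of the 20 other genes of mitochondrial beta-oxidation, 2 were higher and 2 lower at hour 1, 1 and 2 at hour 5, and 3 and 1 at hour 9. The reductase *Decr1*, needed for unsaturated fatty acids, was at -0.23 and -0.24 at hours 1 and 5 (adjusted p = 0.0047 and 0.0021). The short-chain dehydrogenase *Hadh* was at -0.15, -0.21 and -0.13 (adjusted p = 0.0075, 0.00022 and 0.019). *Hsd17b10* was at 0.14, 0.13 and 0.19 (adjusted p = 0.016, 0.018 and 0.0012), and the isomerase *Eci1* rose by 0.16 at hour 9 (adjusted p = 0.021). Of the 15 genes of peroxisomal beta-oxidation, 2 were higher and 1 lower at hour 1, 1 lower at hour 5 and 0 changed at hour 9. *Hacl1*, which works on branched fatty acids, was at -0.34 and -0.30 at hours 1 and 5 (adjusted p = 0.0050 and 0.012). *Acox3* and *Acaa1b* were at 0.15 and 0.14 at hour 1 (adjusted p = 0.0093 and 0.0091). The median log2 fold change of the mitochondrial list was -0.0084, -0.0080 and 0.04 and that of the peroxisomal list was 0.02, 0.06 and 0.08.

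*Pdk4* encodes a kinase that switches off pyruvate dehydrogenase and so spares glucose when fat is burned, and it is a known target of glucocorticoids in muscle and liver. It rose 1.81-fold at hour 1 and was back at the vehicle level by hour 5. At hour 1 the vehicle animals ranged from 459 to 590 (median 498) and the corticosterone animals from 661 to 1523 (median 944), without overlap. At hour 5 the ranges were 454 to 565 (median 531) in vehicle and 438 to 577 (median 506) in corticosterone animals, and at hour 9 they were 391 to 492 (median 452) and 358 to 578 (median 441). The groups thus overlapped almost fully at the later hours. The SD of the treated group was 264 at hour 1 and 50.2 at hour 5, against 43.5 and 43.9 in vehicle animals. The array with the smallest ratio at hour 1 (0.16) held both the highest vehicle and the lowest treated animal, and the array with the largest ratio (1.51) held the treated animal at 1523.

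The log2 fold changes of *Pdk4* were 0.85 (SE 0.0872, adjusted p = 2.2e-10), -0.02 (95% interval -0.20 to 0.15, adjusted p = 0.89) and -0.03 (-0.21 to 0.14, adjusted p = 0.85). The effect differed between hours by a test of the change itself: from hour 1 to hour 9 it changed by -0.89 (SE 0.123, adjusted p = 2.6e-06) and from hour 1 to hour 5 by -0.88 (adjusted p = 2.5e-05). *Pdk4* was the 1 member of 8 called in each of these changes, against 0.827 and 0.0389% of all probes. From hour 5 to hour 9, 0 of 8 members were called by limma, against 0.0830% of all probes, and 1 (*Slc16a1*) had an unadjusted p under 0.05. By limma on log ratios the count was also 0. Within slides, the mean log2 ratio at hour 1 was 0.82, 0.71 and 1.01. Leaving out any 1 of the 24 arrays kept the value at hour 1 between 0.76 and 0.95, with adjusted p of at most 8.9e-09.

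Among the other kinases and the phosphatases of pyruvate dehydrogenase, some differed between the groups at all 3 hours, where dye and treatment cannot be told apart. The kinase *Pdk2* was at 0.32, 0.27 and 0.26 (adjusted p = 8e-06, 0.00015 and 0.00034), and the phosphatase *Pdp2*, which reverses the action of the kinases, was at 0.44, 0.60 and 0.45 (adjusted p = 8e-06, 1.8e-08 and 1.5e-05), on 8 of 8 arrays at each hour. The kinase *Pdk1* was at -0.19 and -0.19 at hours 1 and 5 (adjusted p = 0.0015 and 0.0017), and *Pdk3* was at 0.06, 0.03 and 0.07 without passing the test. The subunit *Pdhx* fell by 0.16 at hour 5 (adjusted p = 0.0091). In all, of the 12 other genes of the complex and its control, 2 were higher and 3 lower at hour 1, 2 and 4 at hour 5, and 2 and 1 at hour 9, and the effect on 0 of them changed between hours 1 and 9. The median of the list was -0.05, -0.03 and -0.07.

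*Angptl4* encodes a secreted inhibitor of lipoprotein lipase, a classical target of PPARs and of the glucocorticoid receptor in fat tissue and liver. It was higher with corticosterone at all 3 hours, by 1.29-, 1.25- and 1.33-fold. Vehicle animals ranged from 656 to 920 (median 701) and corticosterone animals from 777 to 1430 (median 905) at hour 1, from 631 to 921 (median 755) and 718 to 1375 (median 922) at hour 5, and from 540 to 741 (median 625) and 746 to 983 (median 814) at hour 9. Only at hour 9 did the groups not overlap. The treated animal was the higher one on 7, 6 and 8 of 8 arrays. The log2 fold changes were 0.36 (SE 0.0951, adjusted p = 0.0043), 0.32 (adjusted p = 0.012) and 0.42 (adjusted p = 0.0018), and their change from hour 1 to hour 9 was 0.05 (95% interval -0.22 to 0.32, adjusted p = 1). The interval of this change does not reach the -0.89 of *Pdk4*. A difference that stays alike over the hours cannot be told apart from a constant dye difference here.

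The *Angptl4* difference at hour 5 passed the threshold in 23 of the 24 fits that left out 1 array. The largest ratio, 1.06, came from replicate 4, and without that array the log2 fold change was 0.21 (adjusted p = 0.094). It was 0.21 (adjusted p = 0.17) without slide 2 and 0.37 (adjusted p = 0.050) without slide 3. At hour 1 the log2 fold change was 0.32 (adjusted p = 0.082) without slide 3. At hour 9 it was 0.41 (adjusted p = 0.11) without slide 1. Of the 6 adipocyte markers, 4 had a mean signal under 50: *Adipoq* was well above background in 2 of 48 channels and *Cfd* in 0 of 48, while *Lep* and *Retn* were in 48 of 48. Of the list, 0 were called at hour 1 and 1 (*Cidec*, well above background in 6 of 48 channels) was higher at hours 5 and 9, and the summed signal of the 6 markers ranged from 385 to 421 in vehicle and from 388 to 438 in corticosterone animals at hour 1. The part of fat cells in the *Angptl4* result was not tested.

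Of 14 other genes around lipoprotein lipase and fatty acid binding, 1 was higher and 5 lower at hour 1, 1 and 4 at hour 5, and 1 and 2 at hour 9, and 4 of the 14 had a signal under 50. *Lpl*, the lipase itself, fell by 0.15 at hour 1 (adjusted p = 0.024) and was at 0.11 at hour 9 (adjusted p = 0.11), and its effect changed by 0.27 between these hours (adjusted p = 0.044). The fatty acid binding protein *Fabp7* of astrocytes and neural stem cells was at -0.73 at hour 1, -0.33 at hour 5 and -0.09 at hour 9 (adjusted p = 4e-09, 0.0027 and 0.48), and this change was significant (0.64, adjusted p = 0.00058). *Fabp5* was at -0.28, -0.33 and -0.28 (adjusted p = 0.012, 0.0035 and 0.013), and *Fabp3* was at 0.24 and 0.15 at hours 1 and 5 (adjusted p = 0.00083 and 0.041). The median of the list was 0.014, -0.0004 and 0.04.

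The receptors and regulators of these pathways were mixed. Of 19 genes of PPAR and malonyl-CoA control, 5 were higher and 4 lower at hour 1, 3 and 4 at hour 5, and 2 and 2 at hour 9. *Ppara*, the receptor that drives fatty acid oxidation genes, was at 0.33 and 0.21 at hours 1 and 5 (adjusted p = 0.00071 and 0.033). At hour 9 it was at 0.14 and did not pass the test (adjusted p = 0.18), though it was higher on 8 of 8 arrays at each hour. The mitochondrial carriers *Ucp2* and *Ucp3* were at 0.56 and 0.58 at hour 1 and at -0.09 and 0.0020 at hour 9, a change of -0.65 and -0.58 (adjusted p = 0.0016 and 0.0012). The receptor *Rxrg* was at -0.39 and -0.28 at hours 1 and 5 (adjusted p = 0.0044 and 0.039). The median of the list was 0.05, 0.06 and 0.03.

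**Figure D4:**
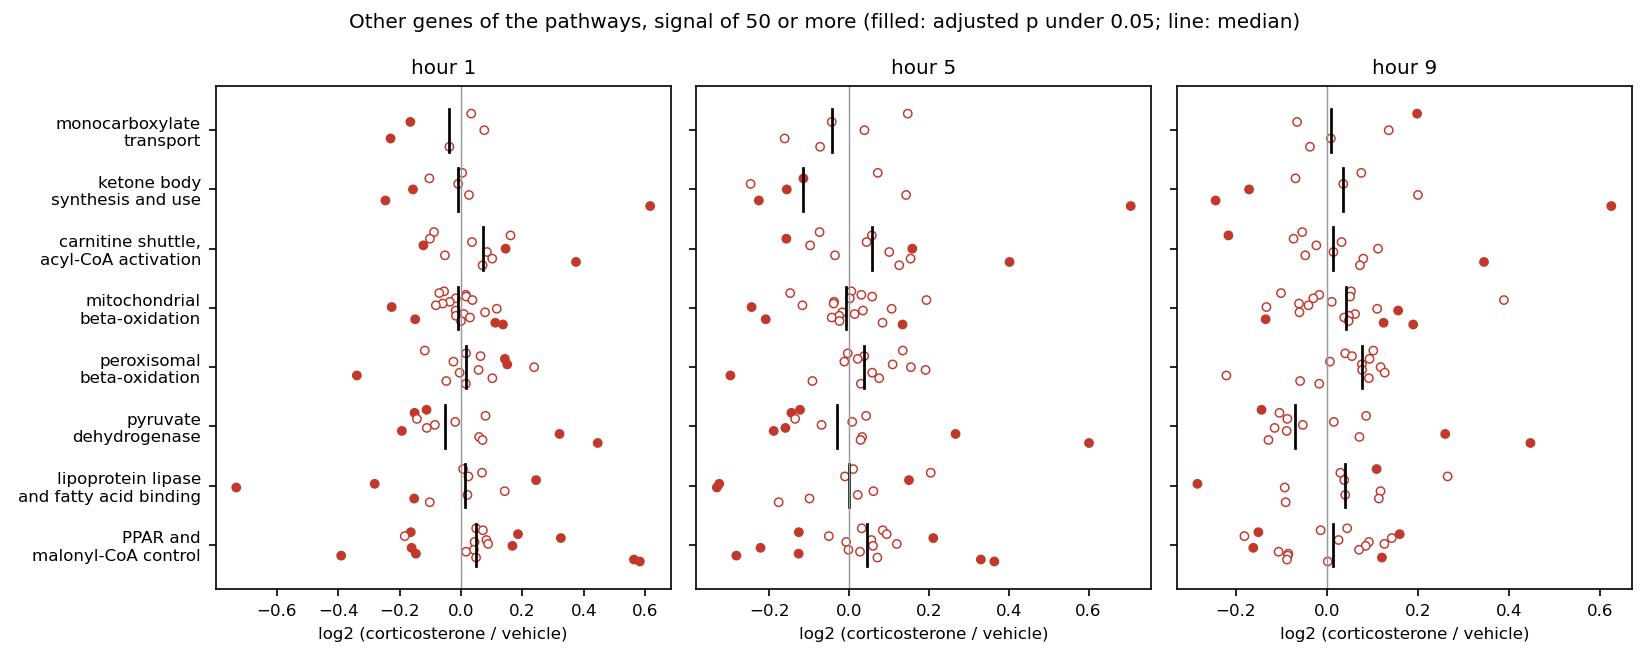
Log2 ratio of corticosterone over vehicle (horizontal axis) at hours 1, 5 and 9 for the other genes of 8 pathway lists with a mean signal of 50 or more; each point is a gene, filled where the adjusted p is under 0.05, and lines are list medians. Most points lie within 0.2 of 0, with *Pdp2*, *Ucp2*, *Ucp3* and *Fabp7* farther out.

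In vehicle animals, which carry 1 dye, 0 of the 8 members differed between hours by limma: hour 9 against hour 1 (0.537% of all probes called, 4 members with an unadjusted p under 0.05), hour 5 against hour 1 (0.00530%, 0 members) and hour 9 against hour 5 (0.0336%, 3 members). With the vehicle channels fitted alone, the counts were also 0. The largest values were those of *Angptl4*, with a log2 fold change of -0.24 from hour 1 to hour 9 (SE 0.111, adjusted p = 0.44) and -0.27 from hour 5 to hour 9 (adjusted p = 0.71). *Cpt1a* was at 0.12 from hour 1 to hour 9 (SE 0.0496, adjusted p = 0.27). *Slc16a1* was at 0.02 (95% interval -0.13 to 0.16) and *Pdk4* at -0.16 (-0.37 to 0.04) over the same time.

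The genes whose normalized log2 intensity followed each member most closely over the 48 channels differed from member to member. For *Pdk4* they were *Pmaip1* (Pearson r = 0.95), *Plekhf1* (0.93) and *Arrdc2* (0.89), with log2 fold changes at hour 1 of 1.27, 1.12 and 0.75 and at hour 9 of -0.03, -0.27 and -0.12. For *Slc16a1* they were *Serpinb1a* (0.88), *Mamdc2* (0.88) and the astrocyte water channel *Aqp4* (0.85), at -0.87, -0.75 and -0.76 at hour 1. For *Angptl4* they were *Fgf1* (0.79), the myelin gene *Mbp* (0.77) and *Selenop* (0.77), and for *Cpt1a* *Cryl1* (0.81) and *Nrarp* (0.80), each of them with log2 fold changes above 0 at each hour. The closest genes to the other 4 members, by their brightest probes, were *Lurap1* for *Bdh1* (0.83), *Xpo1* for *Oxct1* (0.82), *Impa1* for *Cpt2* (0.87) and *Tbkbp1* for *Acadm* (0.73). These correlations are descriptions. The channels share arrays, slides and treatment groups.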

How the data were processed

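Hippocampal RNA of 48 mice was read on 24 two-color Agilent arrays on 3 slides. The authors deposited the scanner output with median intensity of spot and local background in both channels, processed signal intensities and flags, and a table of log2 ratios (Cy5 over Cy3). The deposited log2 ratios nearly equalled those after normexp correction with an offset of 50 and loess alone (median absolute difference per array 0.000677 to 0.00255), and their array medians were between 0.0024 and 0.0089.

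The analysis followed the study's methods and used limma 3.58.1 with statmod 1.5.0 under R 4.3.3: normexp background correction (offset 50 for p values, 0 for fold changes, standard errors and signals), loess within and quantile normalization between arrays. The 3671 control spots were then removed, outlier-flagged spots set missing (77 probes), and copies of a probe averaged. The separate channel test fitted 6 groups of 8 animals with a common intraspot correlation of 0.279. P values were adjusted by Benjamini and Hochberg over 56605 probes, with a threshold of 0.05. Intervals and errors come from the offset 0 values.

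Probes were named by matching their transcript identifiers to a RefSeq gene table (34566 probes). A gene is represented by its brightest probe. Pathway genes are named where they are among the 4 largest significant changes of their list with a signal of 50 or more. *Slc16a7*, *Pdk3*, *Oxct2a*, *Oxct2b*, *Lipc*, *Cd36* and the cell type markers named singly were chosen after their values were seen. Some genes that these rules select are not reported here. Members and lists were chosen with earlier results of these data known. Data were simulated for the 56605 probes with normal noise. Only probes with a mean signal of 50 or more were changed, far fewer than were called at hour 1 in the real data. The adjusted p depends on that number, so the shares found need not hold for the real tests. In the simulation, a change of 0.25 (log2) at hour 1 was found in 74% of 50 probes and one of 0.5 in 98% of 50. In the change from hour 1 to hour 9, 24% of 50 probes were found at 0.25 and 74% of 50 at 0.5. Of 398 probes shifted equally at every hour 376 were called at hour 1 and 0 in the change from hour 1 to hour 9. An equal shift cancels in that change by construction, so the 0 says nothing about a dye difference that varies between arrays. Slide 1 held 2, 2 and 4 arrays of hours 1, 5 and 9, and slides 2 and 3 held 3, 3 and 2 each. Replicates are separate animals. Per the study's methods, each vehicle group was made of brothers of a treated group and each group held animals of 5 litters; the litter of each animal is not given in the sources used here, so litter was not a term of the fit. Alternatives to the offsets, normalization, filters, fit, slides and arrays are described at the end. Figures were drawn with matplotlib 3.10.9.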

Additional observations from a re-analysis of the deposited data

Results flagged for a closer look

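The corticosterone effect on *Pdk4* differed between hours. Its change from hour 1 to hour 9 was -0.89 on the log2 scale and that from hour 1 to hour 5 was -0.88, both past the threshold in the test of the change itself. In neither comparison can a constant dye difference contribute. No array stood apart from the other 7 of its hour in 33 tests of the log2 ratios of the 11 probes (Dixon's test).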

How the results depend on the processing

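The offsets, the background correction, the normalization within and between arrays, the filters, the outlier flags, the slide as a block and the intensity trend left the number of members called at each hour within 1.5 times. With the processed signals, 2 members were called in the change from hour 1 to hour 9. Without slide 1, 0 members were called at hour 9, where 4 arrays remained, and without slide 2 or slide 3 there was 1 at hour 5. Over all probes, the calls at hours 1, 5 and 9 (9918, 10241 and 7910) were 6064, 5481 and 1546 without slide 1, 4552, 7171 and 4775 without slide 2, and 6122, 4925 and 5768 without slide 3, those of the change from hour 1 to hour 9 (468) were 115, 259 and 216 in the same order, and those of vehicle hour 9 against hour 1 (304) were 6, 227 and 122, and 18 with no normalization between arrays. Keeping probes with a mean signal of 50 or more left 4467 at hour 9, with fewer probes tested. Leaving out single arrays gave 4 to 5 members at hour 1, 1 to 3 at hour 5 (1 without replicate 4 of hour 5) and 2 to 3 at hour 9. Of 652 member values recomputed for the 3 hours and the change from hour 1 to hour 9, under the alternatives other than single arrays, 615 kept their direction and their side of the threshold, 13 lost and 7 gained a call, 3 within-slide values at hour 9 (slide 3) moved by over 1 SD, and 14 changed sign. Each of these sign changes was of a value that had not passed the test: *Oxct1* at hour 9 (0.011 with the processed signals, 0.0074 without slide 2, 0.0474 without slide 3), at hour 5 (0.0186 without slide 3) and in the change from hour 1 to hour 9 (-0.0543 without slide 1), *Cpt2* at hour 9 (-0.0597 without slide 1), at hour 5 (-0.019 without slide 2) and in the change (0.0274 with its dimmer probe, which was near background, so this value is not read as a change), *Cpt1a* in the change (0.0546 without slide 1), *Acadm* at hour 1 (-0.001 without slide 2, -0.0042 without slide 3), *Pdk4* at hour 5 (0.012 without slide 2) and at hour 9 (0.0034 without slide 3), and *Bdh1* in the change (-0.0413 with its dimmer probe). In the comparisons of hour 5 with hours 1 and 9 and among vehicle animals, further values that had not passed the test changed sign. With each hour fitted alone, *Cpt1a* at hour 5 had a log2 fold change of 0.12 and an adjusted p of 0.080. The cause was not tested, and leaving out a slide also leaves fewer arrays. Limma on log ratios, which pairs the animals of an array, changed 1 of these calls (*Cpt2* at hour 1). Replicate numbers do not pair animals across hours, so no replicate block was fitted. Signals close to background limit the second *Cpt2* probe. The other pathway genes were not recomputed under these alternatives.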

Other observations

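Markers of other cell types were counted beside the members. Of 9 microglia markers, 3 were lower at hour 1, 3 at hour 5 and 2 at hour 9, and 0 were higher. Of 9 oligodendrocyte markers, 2 were higher and 3 lower at hours 1 and 5, and 2 higher and 4 lower at hour 9. Of 9 neuron markers, 0 changed at hour 1, and 3 and 2 were higher at hours 5 and 9, with medians of 0.13 and 0.10 (log2 fold change). Of 9 astrocyte markers, 2 were higher and 3 lower at hour 5, and 1 higher and 2 lower at hour 9. Of 7 blood cell markers, 1 was lower at each hour. By limma, 0 of 8 choroid plexus markers changed at any hour. Their part in the results for the fuel genes was not tested.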
